A study of Mus musculus with 2 samples.

Results

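A set of 7 genes through which antigen-presenting cells stimulate or restrain T cells was examined in macrophages sorted from the mouse small intestine: Cd80, Cd86, Icosl, Cd40, Cd274, Pdcd1lg2 and Cd83. They were taken as a named list of costimulation and checkpoint genes, and all 7 were found by symbol among the 27998 genes of the count matrices. Cells were kept when 200 or more genes were detected and mitochondrial UMIs did not exceed 10%, where a UMI is a unique molecular identifier that tags 1 captured transcript end. The genes were then followed across libraries and wild-type lanes, and across cells grouped by their share of H2-Aa transcripts, by the number of Ccr2 UMIs and by the share of the immediate-early genes Fos, Egr1 and Dusp1.

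A T cell that recognises peptide on MHC class II needs further signals from the presenting cell. CD80 and CD86, the B7 ligands, bind CD28 to activate and CTLA4 to restrain T cells, ICOSL binds ICOS, and CD40 is the receptor through which T cell CD40 ligand stimulates the presenting cell. PD-L1 (encoded by Cd274) and PD-L2 (encoded by Pdcd1lg2) bind PD-1 and restrain T cells, while CD83 protects CD86 and MHC class II from ubiquitination by MARCH1. Macrophages of the intestinal wall sample food and microbial antigens, and many are replenished from blood monocytes that enter through CCR2.

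The series compared 1 library of WT animals (male C57BL/6J mice from Janvier) with 1 library of CCR2-/- animals (a JAX strain bred in-house, sex not stated in the labels used here). No treatment was named and ages were not given. For each library 3 to 4 small intestines were combined, freed of mucus and epithelium and digested with Liberase TL. Live CD45+ cells negative for CD3, TCRb, B220, SiglecF, Ly6C and Ly6G and positive for CD11b, MHCII and CD64 were then sorted and run on the 10x 3' v2 chemistry. The gate removes cells with surface Ly6C, a marker of freshly arrived monocytes, in both genotypes. Animal source and genotype cannot be told apart. Each genotype has only 1 library, so the genotypes are compared by values without a test, and every interval below is an exact 95% interval for counting error only. WT cells were split over 2 lanes, told apart by the suffix of the cell barcode. The lanes belong to 1 sample and were taken as technical repeats, which show how far a level moves between runs.

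After filtering, 3016 WT cells and 2612 knockout cells remained, with 20678108 and 7265386 UMIs. The median was 6129 UMIs per WT cell (6185 in lane 1 and 6034 in lane 2) and 2439 per knockout cell. The WT lanes shared 5 cell barcodes and the genotypes shared 6. Ccr2 itself, the targeted gene, had 6844 UMIs in WT and 50 in the knockout, or 331 and 6.88 per 1000000 UMIs (CPM). All 8 macrophage markers were detected in both libraries, with sums of 14277 CPM in WT and 10716 CPM in the knockout. Markers of other cell types were present: fibroblast markers summed to 26.1 CPM in WT and 232 in the knockout, endothelial markers to 59.9 and 189, haemoglobin genes to 761 and 7429, dendritic cell markers to 94.5 and 73.1, and T cell or innate lymphoid markers to 8.90 and 18.9. All 3 mast cell markers were at 0 in both libraries, and S100a8 and S100a9 of the neutrophil list were at 0 in both. Csf3r of that list had 33.6 CPM in WT and 41.6 in the knockout, and Retnlg had 0.242 and 0. Eosinophil markers summed to 3.68 CPM in WT and 8.53 in the knockout. Monocyte markers, Ccr2 included, summed to 652 CPM in WT and 154 in the knockout, plasma cell markers to 1837 and 1995, B cell markers to 54.1 and 61.9, and epithelial markers to 193 and 152.

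The 7 genes lie on 5 chromosomes of GRCm38 in GENCODE M21, and 2 pairs share a chromosome. Cd274 (ENSMUSG00000016496, chr19:29367455-29388095, + strand) and Pdcd1lg2 (ENSMUSG00000016498, chr19:29410919-29471161, + strand) are direct neighbours, separated by 22823 bases with no gene between them. Cd86 (ENSMUSG00000022901, chr16:36603869-36666081, - strand) and Cd80 (ENSMUSG00000075122, chr16:38455561-38496335, + strand) are 1789479 bases apart with 46 genes between them. Cd40 (ENSMUSG00000017652) lies at chr2:165055627-165072948, Icosl (ENSMUSG00000000732) at chr10:78069302-78083913 and Cd83 (ENSMUSG00000015396) at chr13:43784775-43803132, all on the + strand. An antisense gene, A930007I19Rik, overlaps Pdcd1lg2. Use of strand in the counting is not given in the sources used here, so whether reads of this pair were kept apart is not known.

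The promoters of the neighbouring pair are shown because the genes stand side by side yet differed in how they followed genotype. Each is the RefSeq window on GRCm38.p6 from 250 bases before to 50 bases after the annotated start, on the + strand, at chr19:29367188-29367487 for Cd274 and chr19:29410669-29410968 for Pdcd1lg2. The Cd80 window, at chr16:38458683-38458982, is shown with them as the promoter of a B7 ligand that was more than 2-fold higher in the knockout. Its RefSeq start lies 3372 bases inside the gene as GENCODE M21 places it, so the window is not at the GENCODE start, while the starts of the other 2 genes differ by 17 bases or less. Capitals mark every match to 4 patterns searched on both strands.
Cd274: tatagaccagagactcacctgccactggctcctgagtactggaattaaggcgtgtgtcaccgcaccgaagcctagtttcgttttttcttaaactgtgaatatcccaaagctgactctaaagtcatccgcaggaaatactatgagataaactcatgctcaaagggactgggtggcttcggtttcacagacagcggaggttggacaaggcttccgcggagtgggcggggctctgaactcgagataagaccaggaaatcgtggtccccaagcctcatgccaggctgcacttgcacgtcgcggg
Pdcd1lg2: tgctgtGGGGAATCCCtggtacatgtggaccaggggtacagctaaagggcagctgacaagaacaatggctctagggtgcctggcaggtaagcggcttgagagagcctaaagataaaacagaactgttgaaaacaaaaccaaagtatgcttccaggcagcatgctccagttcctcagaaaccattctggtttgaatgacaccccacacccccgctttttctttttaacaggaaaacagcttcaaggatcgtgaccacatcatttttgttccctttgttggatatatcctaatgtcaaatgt
Cd80: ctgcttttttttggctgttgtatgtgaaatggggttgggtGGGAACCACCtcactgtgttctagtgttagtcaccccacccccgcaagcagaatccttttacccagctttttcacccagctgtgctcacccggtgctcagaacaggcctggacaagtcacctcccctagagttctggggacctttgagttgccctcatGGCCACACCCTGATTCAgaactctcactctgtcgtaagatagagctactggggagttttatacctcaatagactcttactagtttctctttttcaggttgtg
The patterns were GGGNNNNNCC for NF-kB, GAAANNGAAA for interferon regulatory factors, TTCNNNGAA for STAT (the GAS pattern) and TGANTCA for AP-1. The Pdcd1lg2 window holds 1 match to the NF-kB pattern, which starts 244 bases before the annotated start. The Cd80 window holds 2 NF-kB matches, the nearer of which adjoins an AP-1 match that starts 42 bases before the start. No letters of these patterns occur in the Cd274 window. Icosl, the only other gene of the 7 in the promoter table, holds 2 NF-kB matches in its window. Of all 32851 RefSeq promoter windows of this length, 50.8% hold the NF-kB pattern, 3.44% the interferon regulatory factor pattern, 8.30% the GAS pattern and 7.81% the AP-1 pattern. Cd86, Cd40 and Cd83 were not in the table.

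Between genotypes, all 7 genes had a higher level in the knockout library, where 62.3% of the 7401 genes with a mean of at least 10 CPM were higher. 4 of them, Cd83, Cd274, Cd80 and Cd86, were at least 2-fold higher, as were 9.04% of all genes. The median log2 ratio of the 7 genes (on CPM + 1) was 1.17, against 0.18 for all genes, whose 5th to 95th percentiles ran from -0.88 to 1.29. Between the WT lanes 2 of the 7 genes were higher in lane 2 (all genes 41.1%) and none reached 2-fold in either direction (0.0428% of all genes higher by that much, 0.684% lower), with a median log2 ratio of -0.07. Scaling by median-of-ratios size factors, which brings the share of genes higher in the knockout to 49.99%, left all 7 genes higher with a median of 0.98. Without cells that carried markers of other cell types all 7 genes were again higher, with a median of 1.15. CPM is a share of the captured transcripts. Per cell, without scaling, mean UMIs were higher in the knockout for Cd83 (1.33 in WT, 2.10 in the knockout) and Cd274 (0.406 and 0.531), almost equal for Cd80 (0.0829 and 0.0831), and lower for Cd86 (1.06 and 0.974), Cd40 (0.324 and 0.215), Pdcd1lg2 (0.183 and 0.0988) and Icosl (0.0872 and 0.0509). Fewer captured UMIs and less RNA per cell cannot be told apart.

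**Figure D1:**
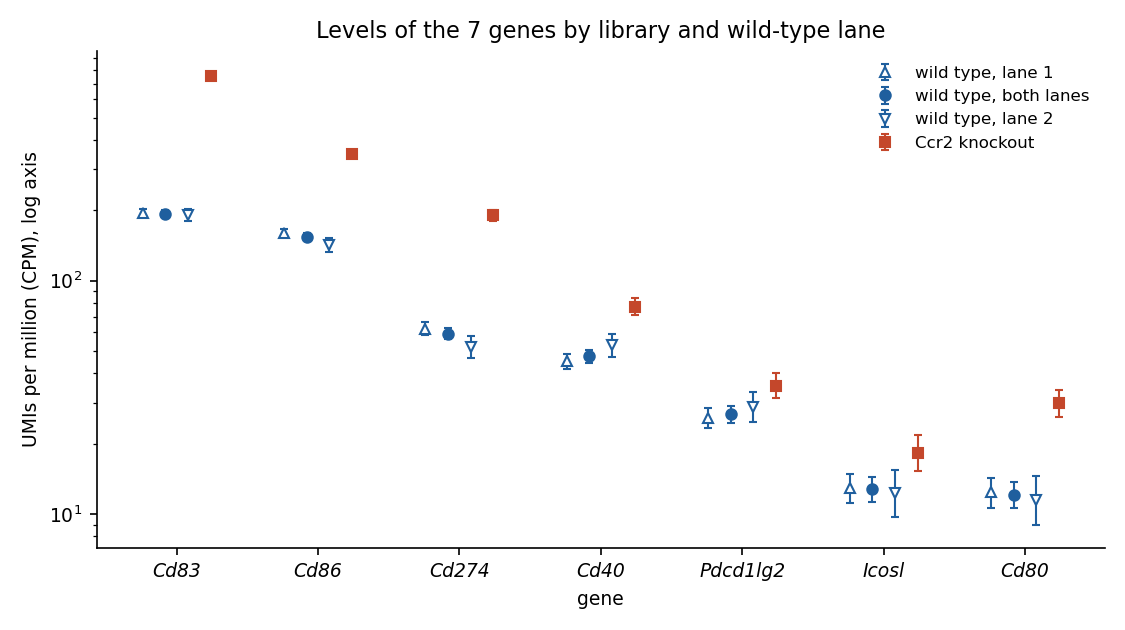
Level of each gene in CPM (log axis) in WT lane 1, both WT lanes, WT lane 2 and the Ccr2 knockout; bars are exact Poisson 95% intervals. The lanes lie near each other, but their intervals do not overlap for Cd86 and Cd274. For every gene the knockout lies above both lanes, by most for Cd83 (755 against 194 CPM) and by least for Pdcd1lg2 (35.5 against 26.7 CPM).

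**Figure D2:**
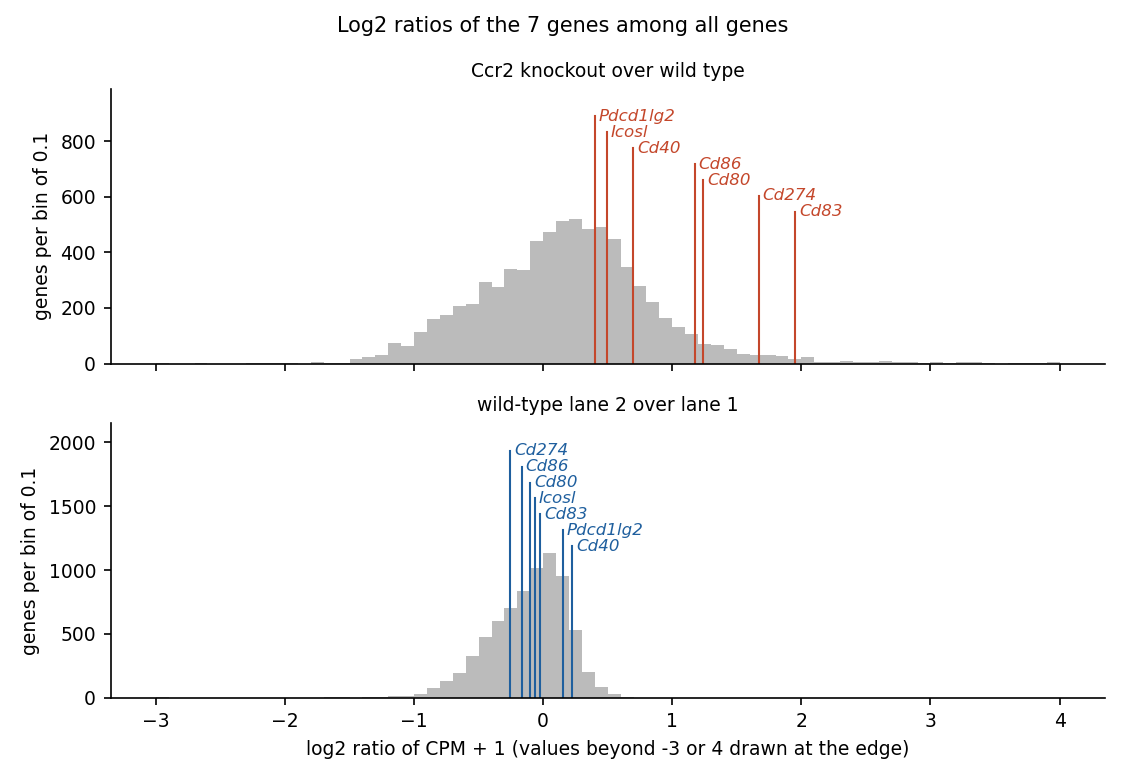
Histograms of log2 ratios over all genes of at least 10 CPM, for knockout over WT (upper panel) and WT lane 2 over lane 1 (lower panel), with the 7 genes as vertical lines whose height has no meaning. Cd83, Cd274, Cd80 and Cd86 stand in the right tail of the upper panel, while Cd40, Icosl and Pdcd1lg2 lie within its bulk.

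Among the ligands of T cell activation, both B7 ligands were higher in the knockout and ICOSL less so. Cd86 had 160 CPM in WT lane 1 and 142 in lane 2, and 350 in the knockout. The knockout level was 2.26-fold that of WT (2.15 to 2.39), and 6.12% of all genes had a higher ratio. Cd80 had 12.4 and 11.5 CPM in the WT lanes and 29.9 in the knockout, a 2.47-fold difference (2.05 to 2.98). The intervals of the lanes overlapped for Cd80 and did not touch that of the knockout. Icosl, the ligand of ICOS, had 12.9 and 12.3 CPM in the lanes and 18.3 in the knockout, 1.44-fold (1.16 to 1.78). Of all genes, 29.2% had a higher ratio than Icosl. Among cells of 2000 to 4000 UMIs, however, its fold was 3.04 (1.68 to 5.88, on 14 WT and 61 knockout UMIs), with 2.38% of genes above it, so the size of its difference was not stable over depth.

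Cd40, the receptor for T cell help, had 45.0 CPM in lane 1, 52.7 in lane 2 and 77.4 in the knockout. Its fold was 1.64 (1.47 to 1.82) and 18.1% of all genes exceeded its ratio. Lane 2 was the higher lane for Cd40, whereas lane 1 was the higher for Cd86 and Cd274.

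The checkpoint ligands diverged despite their adjacent position. Cd274 had 62.3 CPM in lane 1, 52.1 in lane 2 and 191 in the knockout, 3.22-fold higher (2.98 to 3.48), and 2.57% of all genes had a higher ratio. Pdcd1lg2 had 25.8 and 28.8 CPM in the lanes and 35.5 in the knockout, 1.33-fold higher (1.14 to 1.54), with 35.4% of genes above it. The intervals of Pdcd1lg2 in lane 2 (24.7 to 33.4 CPM) and in the knockout (31.3 to 40.1 CPM) overlapped. The antisense gene A930007I19Rik had 45.7 and 41.3 CPM in the lanes and 81.6 CPM in the knockout.

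Over all cells, Cd83 showed the widest gap of the 7 genes. It had 195 CPM in lane 1, 192 in lane 2 and 755 in the knockout, 3.89-fold higher (3.73 to 4.05), and 1.43% of all genes had a higher ratio. Of the Cd83 UMIs, 10.2% in WT and 5.78% in the knockout came from the 1% of cells with the most, so a few cells did not carry the level. WT cells with any Cd83 UMI held a mean of 2.53 of them and knockout cells 2.85. Among cells of 2000 to 4000 UMIs the Cd83 fold was smaller, at 2.82 (2.58 to 3.09). It was then below that of Icosl, 3.04 with a wide interval (1.68 to 5.88). The folds of Cd274 (2.47, 2.10 to 2.93), Cd80 (1.89, 1.27 to 2.87) and Cd40 (1.46, 1.16 to 1.85) were also smaller there. So was that of Pdcd1lg2 (0.966, 0.729 to 1.29). Cd86, like Icosl, had a larger fold there, at 2.765 (2.42 to 3.17).

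The share of cells with a UMI depends on depth, so each cell was thinned at random to 1000 UMIs; this left out 1 WT and 196 knockout cells that were shallower. All 7 genes were then detected in a larger share of knockout cells, as were 59.4% of the 7401 genes thinned in the same way. Cd83 was detected in 17.4% of 3015 WT cells (16.1 to 18.8) and 48.9% of 2416 knockout cells (46.9 to 50.9). For Cd86 the shares were 12.6% and 26.5%, for Cd274 5.57% and 16.6%, for Cd40 4.44% and 7.99%, and for Cd80 1.66% and 3.10%. The intervals of these 5 genes did not overlap between genotypes, which held in the same direction for 22.3% of all genes. They overlapped for Pdcd1lg2 (2.82% and 3.35%) and Icosl (1.23% and 1.82%), whose difference was not detectable at this depth. Unthinned, only Cd83 (52.6% and 73.5%) and Cd274 (28.2% and 33.5%) were detected in a larger share of knockout cells, and the other 5 genes in a smaller share. No UMI of any of the 7 genes was found in 62.7% of thinned WT cells and 28.7% of thinned knockout cells, and 3 of the 7 were found together in 21 WT cells (0.697%) and 154 knockout cells (6.37%).

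As background, the same shares were taken in cells with few macrophage transcripts and with T cell, innate lymphoid or plasma cell markers, 24 in WT (median 9178 UMIs before thinning) and 32 in the knockout (2650). Cd86, Cd80, Cd40 and Icosl were at 0 of 24 and 0 of 32 such cells, with exact upper limits of 14.2% and 10.9% (12.5% and 9.38% by a limit of 3 counts). Cd274 and Pdcd1lg2 were each found in 1 cell per library (4.17%, 0.105 to 21.1, and 3.13%, 0.0791 to 16.2). With so few cells these limits are wide. The shares over all cells of Cd80, Cd40, Icosl and Pdcd1lg2 in both libraries, and of Cd86 and Cd274 in WT, lay within them. By thinned share these are not separated from background. Cd83 was found in 0 of 24 WT cells and in 6 of 32 knockout cells, or 18.8% (7.21 to 36.4), below its 48.9% over all knockout cells. Only Cd83 in both libraries and Cd86 and Cd274 in the knockout had shares over all cells above the upper limit of this background. Summed without thinning, the background cells held 0 UMIs of Cd86 in WT (upper limit 14.2 CPM), against 155 CPM over all WT cells. They held 0 of Cd40 in both libraries (upper limits 14.2 and 30.3 CPM), against 47.3 CPM in WT and 77.4 CPM in the knockout. The levels of Cd80, Icosl and Pdcd1lg2 in both libraries, and of Cd274 in WT, still lay within the background intervals. B cell-marked cells were left out of this background because B cells can use several of these genes themselves.

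Ccr2 transcripts divided the WT cells into 1692 without a UMI, 322 with 1 and 1002 with 2 or more, with median depths of 5303, 5522 and 8416 UMIs. Comparing cells with 2 or more with cells that had none, 2 of the 7 genes were higher (39.0% of all genes) and the median log2 ratio was -0.34 against -0.07 over all genes. Pdcd1lg2 differed most: 38.3 CPM without Ccr2, 32.6 with 1 UMI and 12.1 with 2 or more, a ratio of 0.315 (0.252 to 0.392). It was the only gene of the 7 that was at least 2-fold lower, as were 2.45% of all genes. Its log2 ratio was -1.47 in lane 1 and -1.85 in lane 2, and -1.13 among cells of 4000 to 8000 UMIs. Cd274 was also lower along these classes, at 73.7, 57.5 and 43.2 CPM, and Cd40 was 53.8, 54.5 and 38.2 CPM. Cd83 was higher, at 175, 185 and 218 CPM, while Cd86 was lower by less, at 164, 152 and 144 CPM. Cd80 was 13.4, 13.1 and 10.3 CPM, a ratio of 0.772 with an interval (0.584 to 1.02) that included 1. Icosl was 12.5, 12.7 and 13.0 CPM, with overlapping intervals. The antisense gene over Pdcd1lg2 had 49.9 CPM without Ccr2 and 36.8 CPM with 2 or more UMIs.

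Cells with markers of other types made up 15.01% of the WT cells without Ccr2 and 28.0% of those with 2 or more UMIs. The rule counts detected markers, and detection depends on depth. Marked WT cells had a median of 8457.5 UMIs, against 5629.5 in unmarked WT cells. What part depth has in these 2 percentages was not tested. Without the marked cells the log2 ratio of Pdcd1lg2 was -1.48 and that of Cd274 -0.79. The Ccr2-positive cells also had more immediate-early transcripts, 24.6 against 18.4 per 10000 UMIs by median. Within the lower, middle and upper tertile of that share the Pdcd1lg2 ratio was 0.259, 0.310 and 0.323, so it was as low in each. The Cd274 ratio was 0.676, 0.629 and 0.400 in these tertiles, and the Cd83 ratio was between 1.01 and 1.11, each with an interval that included 1.

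**Figure D3:**
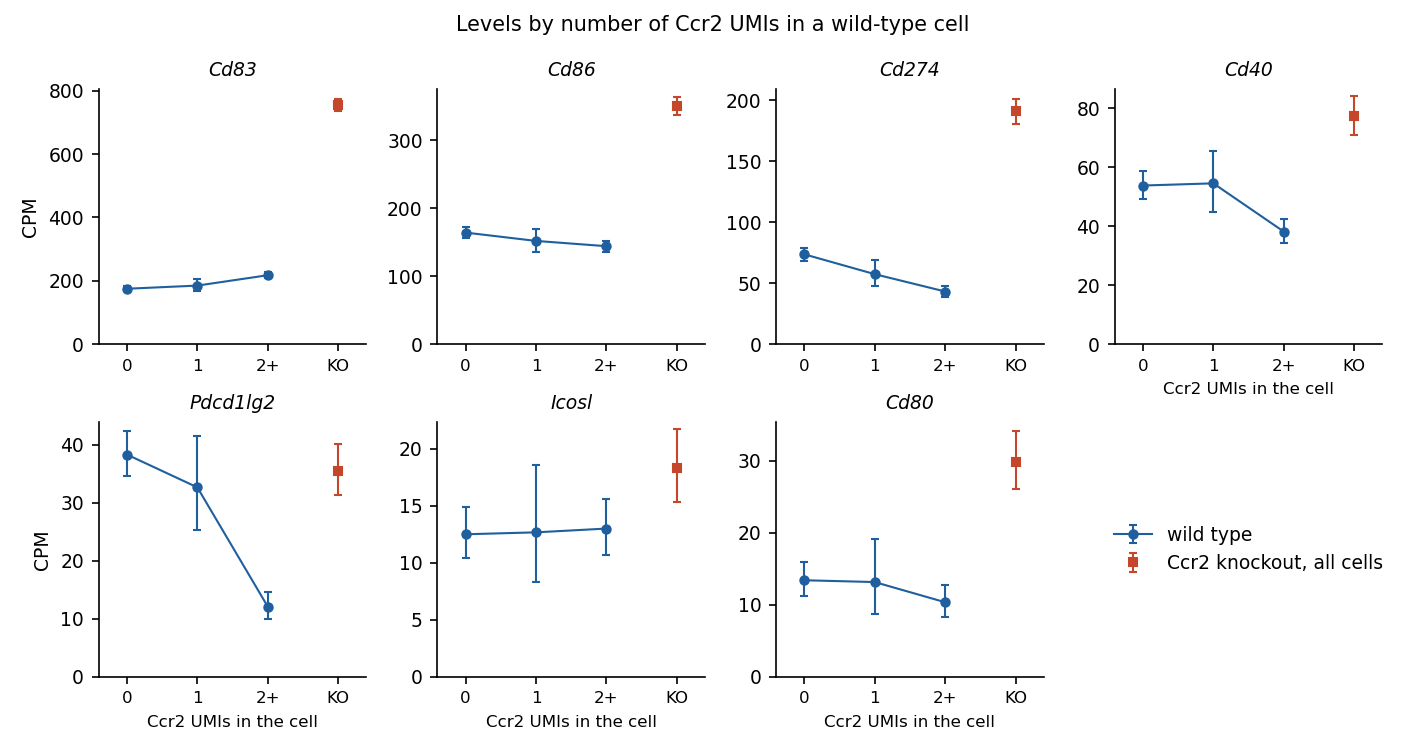
Level in CPM of each gene in WT cells with 0, 1 or 2 and more Ccr2 UMIs (circles) and in all knockout cells (square); bars are exact Poisson 95% intervals. Pdcd1lg2 in the knockout (35.5 CPM) is level with WT cells without Ccr2 (38.3 CPM), whereas for Cd83, Cd86, Cd274, Cd40 and Cd80 the knockout lies above every WT class.

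Set against only the WT cells without a Ccr2 UMI, knockout cells without one were higher in 6 of the 7 genes (61.0% of all genes) and at least 2-fold higher in 4 (7.38%). Pdcd1lg2 was the exception, with 36.0 CPM in the knockout and 38.3 CPM in these WT cells, a ratio of 0.939 (0.799 to 1.10). Cd83 was 4.31-fold higher (4.09 to 4.56), Cd274 2.60-fold (2.38 to 2.85), Cd80 2.27-fold and Cd86 2.14-fold. Cd40 (1.43-fold) and Icosl (1.46-fold) were higher by less. A WT cell without a Ccr2 UMI may still have transcribed the gene, since detection is incomplete.

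The immediate-early genes Fos, Egr1 and Dusp1, which cells transcribe within minutes of a stimulus, also differed between the libraries. Their summed share had a median of 21.3 per 10000 UMIs in WT cells and 108 in knockout cells. In WT cells 6 of the 7 genes were higher in the upper than in the lower tertile of this share (55.2% of all genes), and Cd83 alone was at least 2-fold higher (1.40%). Cd83 was 108, 147 and 349 CPM from the lower to the upper WT tertile, a ratio of 3.24 (2.98 to 3.53). Cd274 was 43.9 CPM in the lower and 75.8 CPM in the upper tertile, and Cd86 was 117 and 199 CPM, ratios of 1.73 and 1.70. Cd80, Cd40, Icosl and Pdcd1lg2 had upper-to-lower ratios of 1.34, 1.11, 1.03 and 0.986, each with an interval that included 1. Among WT cells of 2000 to 4000 UMIs the Cd40 ratio was 1.99 (1.22 to 3.32, on 52 and 26 UMIs) and that of Cd80 was 2.32 (0.839 to 7.38, on 14 and 6 UMIs). With tertiles cut over both libraries together the WT log2 ratios were 0.64 for Cd40, 0.70 for Cd80, 2.51 for Cd83 and -0.79 for Icosl, on an upper class of only 100 WT cells.

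In knockout cells, divided at their own tertiles, 3 of the 7 genes were higher in the upper tertile (59.3% of all genes). Cd83 was 539, 798 and 1017 CPM, a ratio of 1.89 (1.76 to 2.02), and Cd40 was 56.9, 82.6 and 101 CPM, a ratio of 1.77 (1.43 to 2.21). Cd86 ran the other way, at 411, 342 and 270 CPM, a ratio of 0.658 (0.591 to 0.732). Cd274 was 184, 211 and 173 CPM, highest in the middle tertile. The upper knockout tertile was shallower (median 1813 UMIs against 2824 in the lower), and other-type markers were on 20.4% of cells in the lower and 3.79% in the upper. Without those cells the log2 ratio of Cd86 was -0.72 and that of Cd83 0.76, and among cells of 2000 to 4000 UMIs they were -0.57 and 0.78.

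Because the tertiles of the libraries hardly overlapped, cells were also compared at equal immediate-early share, in bins with edges at 15, 30, 60 and 120 per 10000 UMIs that were chosen after the data were seen. The libraries overlapped best in the middle bins: 733 WT and 323 knockout cells lay between 30 and 60, and 223 and 1000 between 60 and 120. Between 30 and 60, all 7 genes were higher in the knockout (55.2% of all genes) and 3 were at least 2-fold higher (7.91%). Cd83 was 287 CPM in WT and 538 CPM in the knockout there, 1.87-fold (1.70 to 2.07), less than its 3.89-fold over all cells. Cd274 was 3.02-fold higher (2.53 to 3.59), Cd80 2.57-fold (1.66 to 3.92) and Cd86 2.51-fold (2.24 to 2.80), close to their folds over all cells. Cd40 (1.16-fold), Icosl (1.40-fold) and Pdcd1lg2 (1.07-fold) had intervals that included 1.

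Between 60 and 120 all 7 genes were again higher in the knockout (55.4% of all genes), 2 of them at least 2-fold (5.99%). Cd83 was 612 CPM in WT and 735 CPM in the knockout, 1.20-fold (1.10 to 1.31), the smallest ratio of the 7 genes in that bin. Cd274 was 2.19-fold higher (1.78 to 2.71), and Icosl 2.16-fold on only 10 WT UMIs (1.10 to 4.72). Cd86 was 1.49-fold and Cd40 1.50-fold higher. Pdcd1lg2 was 1.53-fold higher (1.02 to 2.35), and Cd80 1.45-fold with an interval (0.892 to 2.45) that included 1. Without cells that carried other-type markers the folds in this bin were 1.21 for Cd83, 2.01 for Cd274 and 1.60 for Cd86. That of Pdcd1lg2 was then 1.41 (0.927 to 2.23). In the lowest bin only 76 knockout cells remained, 52.6% of them with other-type markers, and 4 of the 7 genes were higher (45.3% of all genes). Between 15 and 30 (1009 WT and 101 knockout cells) 5 of the 7 were higher (61.7% of all genes), with Cd40 at 0.750-fold and Pdcd1lg2 at 0.712-fold, and Cd86 alone was at least 2-fold higher (15.1%). Other-type markers were on 39.6% of these knockout cells. With such cells left out, the folds were 0.957 for Cd40 and 1.09 for Pdcd1lg2, both with intervals that included 1. With all cells kept, the Cd274 fold was 1.62 (0.963 to 2.57) in the lowest bin and 1.66 (1.10 to 2.41) between 15 and 30. Both were below its fold in the next bins. Without cells that carried other-type markers these folds were 2.72 (1.39 to 4.84) and 2.39 (1.52 to 3.58), on 36 and 61 knockout cells. The fold was then 3.08 between 30 and 60 and 2.01 between 60 and 120.

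**Figure D4:**
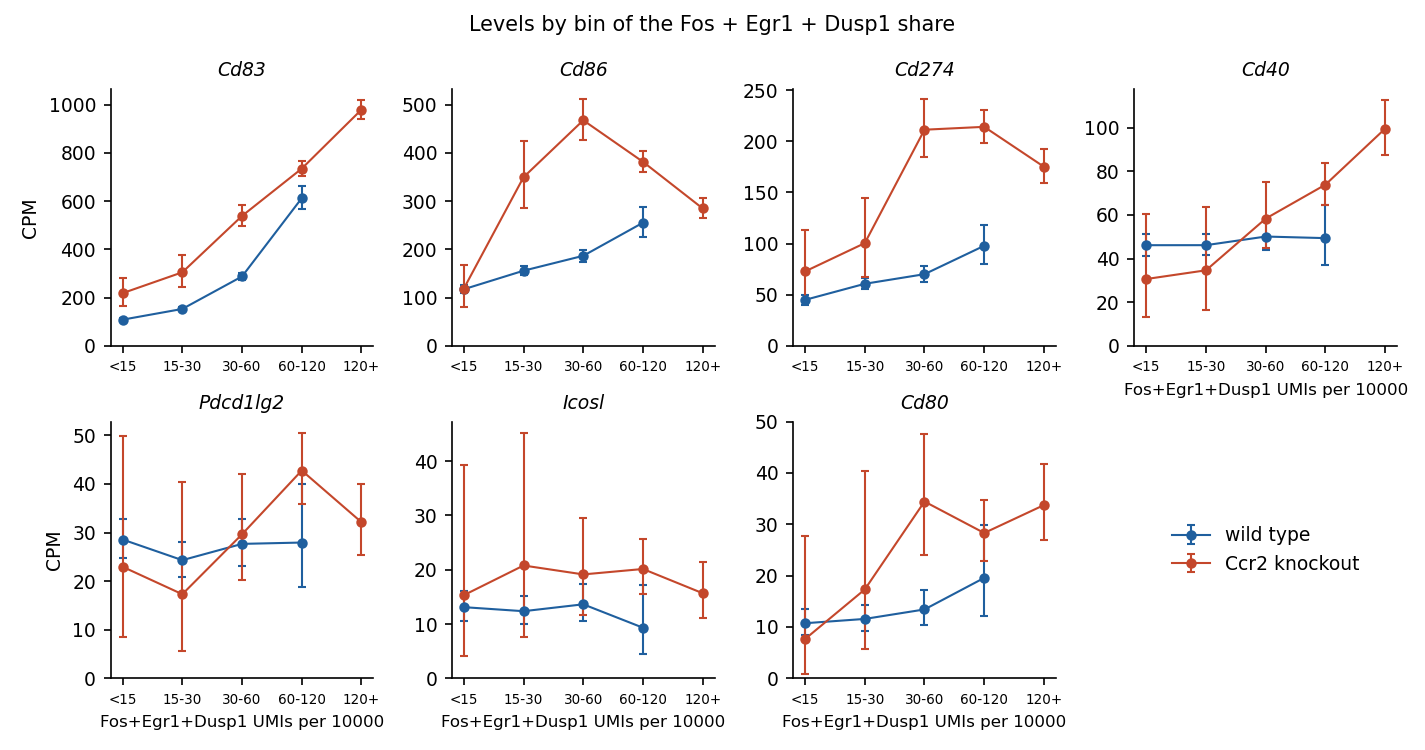
Level in CPM of each gene in bins of the Fos, Egr1 and Dusp1 share (UMIs per 10000 of the cell) for WT and knockout cells; bars are exact Poisson 95% intervals, and the WT bin above 120 is not drawn because it held 17 cells. Cd83 is higher from bin to bin in both libraries and the gap narrows, to 612 against 735 CPM at 60 to 120. Cd274 differs by 1.62-fold at the lowest share, with an interval that includes 1, and by 3.02-fold at 30 to 60. Without cells of other-type markers, which are kept in the drawing, its fold at the lowest share is 2.72 (1.39 to 4.84). Cd86 in the knockout is highest at 30 to 60 (468 CPM).

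Across bins, Cd83 was 108, 153, 287 and 612 CPM in WT, and 218, 305, 538, 735 and 979 CPM in the knockout, where the last bin holds cells above 120. It was higher in each next bin of both libraries. Cd86 in the knockout was 119, 350, 468, 381 and 285 CPM, first higher and then lower, against 117, 156, 187 and 255 CPM in WT. Its direction over the immediate-early share in the knockout thus depends on where along the share the cells are compared: with tertiles cut over both libraries together the log2 ratio of the upper to the lower was 0.86, on a lower class that held few knockout cells. Cd40 in WT was between 46.1 and 50.1 CPM over these bins, and was 30.6, 34.6, 58.3, 73.9 and 99.6 CPM in the knockout. Without cells of other-type markers, Cd40 in the knockout was 82.2, 46.9, 59.4, 77.8 and 100 CPM, the first on only 36 cells. It was then not higher in each next bin. What part the immediate-early state of the cells has in the genotype difference was not tested.

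H2-Aa, a chain of MHC class II, was itself lower in the knockout (11228 CPM in WT, 7840 CPM in the knockout, log2 ratio -0.52), opposite in direction to the 7 genes. In WT cells 2 of the 7 genes were higher in the upper than the lower H2-Aa tertile (33.0% of all genes), and none was 2-fold higher (0.211%) or lower (2.28%). Cd274 was 84.8, 58.4 and 42.7 CPM from the lower to the upper tertile, a ratio of 0.504 (0.437 to 0.580), and Cd83 was 245, 193 and 160 CPM, a ratio of 0.651 (0.603 to 0.703). Cd80 was 15.7, 11.5 and 10.2 CPM, also lower with more H2-Aa. Cd86 (141, 164 and 156 CPM) and Icosl (9.30, 14.7 and 13.3 CPM) were lowest in the lower tertile. Pdcd1lg2 and Cd40 had ratios of 0.827 and 0.904 with intervals that included 1.

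Depth moved with H2-Aa in WT: the median was 4306, 6269 and 7793 UMIs in the 3 tertiles, and the median immediate-early share was 25.0, 22.1 and 16.3 per 10000. Among WT cells of 2000 to 4000 UMIs the log2 ratio of Cd274 was -0.13 in place of -0.97, that of Cd83 was -0.16 in place of -0.62, and that of Cd80 was 0.19 in place of -0.57. The folds of these 3 genes then had intervals that included 1. For Cd40 the log2 ratio was instead further from 0, at -0.69 in place of -0.14, a fold of 0.614 (0.375 to 0.991, on 30 and 47 UMIs). Each tertile of these cells held few UMIs of these genes, and the part of depth in the values was not tested.

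In the knockout 4 of the 7 genes were higher in the upper H2-Aa tertile (44.4% of all genes), and none was 2-fold higher (0.0914%) or lower (3.25%). Cd83 was 642, 803 and 803 CPM, a ratio of 1.25 (1.17 to 1.34), which is the opposite direction to WT. The other 6 genes had intervals that included 1. Cd86 and Cd274 were highest in the middle tertile, at 403 and 205 CPM. With cells split by the sum of H2-Aa, H2-Ab1, H2-Eb1 and Cd74, the Cd86 log2 ratio was 0.57 in place of -0.09. In WT it was 0.64 in place of 0.15. By that sum the knockout log2 ratios of Cd40 and Cd83 were -0.18 and 0.03, in place of 0.24 and 0.32. Cells with other-type markers were 20.6% of the lower, 4.60% of the middle and 6.66% of the upper tertile. Without them the Cd83 log2 ratio was 0.11 in place of 0.32, and 2 of the 7 genes were higher.

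**Figure D5:**
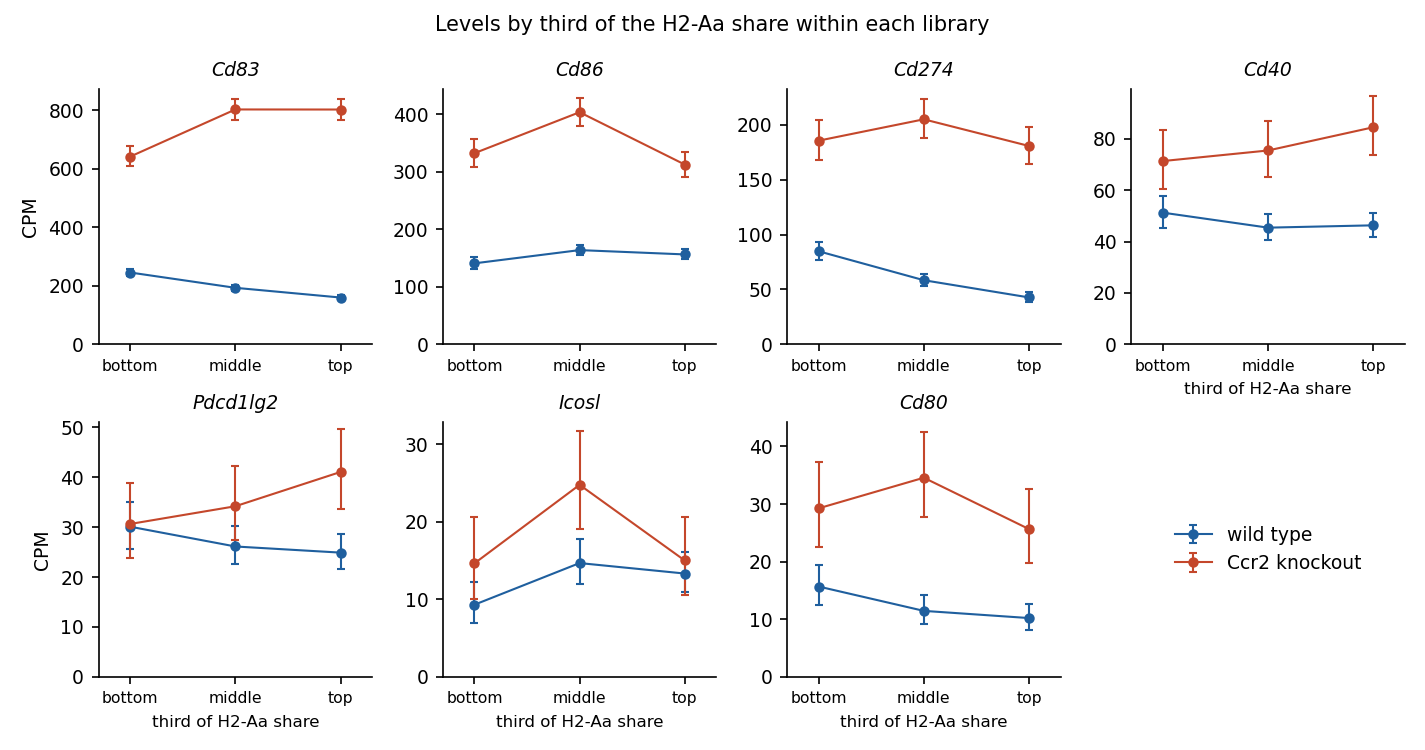
Level in CPM of each gene by tertile of the H2-Aa share, cut within each library, for WT and knockout cells; bars are exact Poisson 95% intervals. In WT Cd274 is 84.8 CPM in the bottom and 42.7 CPM in the top tertile, while in the knockout it stays between 181 and 205 CPM.

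Timd4, a phagocytic receptor known as a marker of long-lived gut macrophages, and the summed share of the interferon-induced genes Ifit1, Ifit2, Ifit3, Rsad2 and Isg15 were also used to divide the cells; these classes were added after the data were seen. WT cells with a Timd4 UMI had 80.6 CPM of Cd274 against 55.5 in those without (1.45-fold, 1.26 to 1.67), and 38.1 CPM of Pdcd1lg2 against 24.6 (1.55-fold, 1.25 to 1.90), while Cd83 was lower, at 163 against 200 CPM. In WT 5 of the 7 genes were higher with Timd4 (59.6% of all genes). In the knockout 6 of 7 were higher (48.3%), among them Cd274 at 220 against 174 CPM and Cd86 at 390 against 327 CPM, with deeper cells in the Timd4 class (median 3014 against 2189 UMIs).

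The 10% of cells with the highest interferon-induced share had more of both checkpoint ligands. In WT Cd274 was 121 CPM in these cells and 53.3 CPM in the rest (2.26-fold, 1.95 to 2.62), and Pdcd1lg2 was 54.3 and 24.0 CPM (2.26-fold, 1.80 to 2.82). All 7 genes were higher there (51.6% of all genes), and these 2 were at least 2-fold higher (1.78%). In the knockout 6 of the 7 genes were higher (43.7% of all genes): Cd274 was 345 and 172 CPM and Cd86 was 550 and 326 CPM, while Cd83 was 710 and 760 CPM.

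Co-detection was counted in the thinned cells and compared with the product of the shares. In the knockout Cd86 and Cd274 were found together in 134 cells where 106 were expected (ratio 1.26), and Cd40 and Cd274 in 45 where 32.0 were expected (ratio 1.40). Cd86 and Cd83 were found together in 321 knockout cells against 313 expected, a ratio of 1.03, and in 88 WT cells against 66.3 expected, a ratio of 1.33. Cd274 and Cd83 had ratios of 1.43 in WT, on 42 cells, and 1.07 in the knockout, on 210. Computed within tertiles of the immediate-early share, the WT ratios were 1.22 for Cd86 with Cd83 and 1.32 for Cd274 with Cd83. Cells of 1 library are not replicates, and no pair with Cd80, Pdcd1lg2 or Icosl was found together in more than 14 WT cells or 38 knockout cells.

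The genes most like each of the 7 were sought over 18 strata of cells (library by tertile of H2-Aa by tertile of immediate-early share), by Pearson's r of log2(CPM + 1) among 5306 genes with a mean of at least 20 CPM. The strata share 2 libraries that differ in genotype and depth, so r is a description. They were also cut on H2-Aa and on Fos, Egr1 and Dusp1. Genes that follow these shares are therefore alike over the strata by construction, also within a single library. Nearest to Cd83 were Csrnp1 (r = 0.99), Junb, an AP-1 subunit, Cxcl2, a neutrophil chemokine, Ppp1r15a and H3f3b, and within the 9 strata of a single library the r of Csrnp1 was 0.97 in WT and 0.92 in the knockout. Nearest to Cd274 were Rnf149 (r = 0.99, and 0.93 within WT and 0.75 within the knockout), Ubl3, Rab43 and Inpp5d. Cd86 was nearest to Plaur, the urokinase receptor (r = 0.96), Nuak2, Rassf1 and Neurl3. Cd80 was nearest to Herc1 (r = 0.97), Emsy, Gna13, Mtus1 and Sumf1, and Cd40 to Fam49a (r = 0.94), Lair1, Mtmr6, Prcp and Kctd12. Pdcd1lg2 had no such close neighbour: its highest r was 0.80, with Nf1, then Zdhhc7, Arhgap25, Lyn and Nipa2. Icosl was below the level required for this search.

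The wider pathway was read from lists of 57 other genes in the matrices, of which 39 reached a mean of 10 CPM; 31 were higher and 8 lower in the knockout, 5 of them at least 2-fold higher (62.3% and 9.04% of all genes). Of 11 other costimulation and checkpoint ligands and partners that reached that level, 9 were higher, none by 2-fold, with a median log2 ratio of 0.45 (all genes 0.18). Of 16 genes of CD40 and NF-kB signalling, 14 were higher with a median of 0.56, and the 5 that were at least 2-fold higher were all in this list. These were Tnfaip3 (59.5 CPM in WT, 387 in the knockout, log2 ratio 2.68) and Nfkbia (205 and 764 CPM, 1.89), both feedback inhibitors of NF-kB that NF-kB itself induces. The others were the subunits Rel (113 and 316 CPM, 1.47) and Rela (33.8 and 68.7 CPM, 1.002) and the ubiquitin ligase Birc3 (96.4 and 239 CPM, 1.30). For Rel the WT lanes differed too, at 131 CPM in lane 1 and 71.7 CPM in lane 2.

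The 7 genes of MHC class II and CD86 turnover had a median log2 ratio of -0.52, with 4 lower. The 4 were H2-Aa, H2-Ab1, H2-Eb1 and Cd74, the class II chains and their invariant chain, and none was lower by 2-fold. March1, whose product marks CD86 and MHC class II for degradation, was 100 CPM in WT (112 in lane 1 and 73.4 in lane 2) and 126 CPM in the knockout. All 5 genes of interferon input to Cd274 were higher (62.3% of all genes) with a median of 0.24, near the 0.18 of all genes, the largest being Irf1 (106 and 204 CPM, log2 ratio 0.94), a transcription factor of the interferon response. On the T cell side, Cd28, Ctla4, Icos, Pdcd1 and Cd40lg were below the level required in these sorted cells, with Cd28 the highest at 2.85 CPM in WT and 11.3 CPM in the knockout.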

How the data were processed

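Single-cell libraries of sorted small-intestinal macrophages were analysed, 1 from WT and 1 from CCR2-/- animals. The deposited matrices hold UMI counts per gene and cell that the authors did not normalise. Cell Ranger 3.0.1 and the build mm10 are named per the submitters' processing notes; the annotation, the strand setting and the calling of cells are not given in the sources used here. UMIs of cells with at least 200 genes and at most 10% mitochondrial UMIs were summed per library, lane or class of cells and scaled to CPM. Cell types were not clustered. Cells with markers of other types were marked by a rule set after the marker counts were seen: at least 2 dendritic, B cell, T cell or lymphoid, fibroblast, endothelial or epithelial markers, at least 3 plasma cell markers, at least 5% haemoglobin, or a macrophage-marker share under the library median divided by 3. This marked 19.4% of WT and 10.6% of knockout cells. Doublets were kept, except in an alternative that removed the highest Scrublet scores (43 WT and 55 knockout cells).

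Log2 ratios were taken on CPM + 1 over genes with a mean of at least 10 CPM; folds are ratios of CPM with no pseudocount, with exact conditional binomial intervals. Levels carry exact Poisson and shares exact Clopper-Pearson intervals at 95%. Tertiles were cut on the share of UMIs within a library. Numbers were computed with numpy 2.4.6, scipy 1.17.1, pandas 2.3.3 and scanpy 1.11.5 and the scripts were tested on simulated data. Of 27998 gene identifiers 27722 were found in GENCODE M21. The 7 genes and the lists were chosen with earlier results of these data known, so neither is independent of them. All 7 genes are named; of the pathway lists, H2-Aa and the genes of at least 10 CPM with a log2 ratio of at least 1 in size and a smaller lane ratio were to be named, and the other genes of the lists named in the text (Irf1, March1, Cd28 and the lower MHC class II genes) were added after their values were seen. For the genes most alike, the 5 highest r per gene were taken, of which some are not reported here. Levels are 3' tag counts and were not divided by gene length.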

Additional observations from a re-analysis of the deposited data

Results flagged for a closer look

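For Cd83 and Cd86 a relation ran in opposite directions in the libraries, and the difference between libraries was not tested. The Cd83 log2 ratio of the upper to the lower H2-Aa tertile was -0.62 in WT and 0.32 in the knockout. The Cd86 log2 ratio of the upper to the lower tertile of the Fos, Egr1 and Dusp1 share was 0.76 in WT and -0.60 in the knockout. Each pair is of 1 library per genotype, at different depths, and the tertile limits differed between the libraries (14.7 and 29.4 per 10000 for the immediate-early share in WT, 83.3 and 139 in the knockout).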

How the results depend on the processing

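No paired analysis was possible because each genotype had 1 library. The count of genes higher in the knockout was 7 under 11 of 13 alternatives, one of which (haemoglobin UMIs left out of totals) was added after the data were seen, and 6 among cells of 2000 to 4000 UMIs and among cells without a Ccr2 UMI; there Pdcd1lg2 had log2 ratios of -0.048 and -0.088. The median log2 ratio of 1.17 became 0.85 with a pseudocount of 10 CPM, 0.98 with median-of-ratios size factors, 1.29 against WT lane 2 alone, 1.30 among cells of 2000 to 4000 UMIs and 1.09 among cells without a Ccr2 UMI. Without thinning, 2 genes in place of 7 had a larger detected share in the knockout, and the differences were -0.52 percentage points for Cd80, -4.14 for Cd86, -5.81 for Cd40, -6.94 for Pdcd1lg2 and -3.30 for Icosl. For H2-Aa tertiles in the knockout the count of 4 became 2 without cells of other-type markers, and in WT the Cd80 log2 ratio became 0.19 among cells of 2000 to 4000 UMIs. For immediate-early tertiles in the knockout the count of 3 became 6 with tertiles over both libraries (Cd86 log2 ratio 0.86) and 5 with the wider gene sum. For Ccr2 classes the count of 2 became 1 in lane 1 alone and 1 among cells of 4000 to 8000 UMIs, where Icosl was on the other side of 0. The cause of these moves was not tested, apart from the depth that thinning removes by construction. Depth limits Icosl and Cd80 most, with 133 and 217 UMIs in the knockout.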
